A study of Homo sapiens with 6 samples.

Results

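Probes for 10 genes of mitosis were followed across all 6 arrays of a study of H1299 cells. H1299 is an established cell line from a human lung carcinoma, labelled lung adenocarcinoma. The genes are TOP2A, NUSAP1, DLGAP5, KIF20A, CCNB2, AURKB, PBK, CDC20, UBE2C and PTTG1. The 10 probes were chosen by their Illumina identifiers, each named with 1 gene, out of 48803 probes in the deposited table. That table holds no gene names, so the pairing of probe and gene is the one given with the list and could not be checked against the data. The study measured mRNA on Illumina human HT-12 BeadChips in exponentially growing stable lines: 2 clones transfected with Lin-28B, named clone 1 and clone 2, with 1 control line for Lin-28B, and 2 clones transfected with Ago2, also named clone 1 and clone 2, with 1 control line for Ago2. Each clone and each control is a single array. The sources used here do not give the vectors, the promoters that drive the transfected genes, or whether a control line was itself a clone. The levels of LIN28B and AGO2, the markers of the cell type and other mitotic genes were not analysed here, because no other probe carries a gene name.

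Mitosis is driven by the kinase CDK1 with its B-type cyclins, and it ends when the anaphase-promoting complex, a ubiquitin ligase, marks cyclins and securin for destruction. The mRNAs of the proteins that carry out division are made together late in the cell cycle, in G2 and M phase, by the B-MYB, FOXM1 and MuvB factors, and are held down in resting cells by the DREAM complex. Their summed level in a culture therefore moves with the share of dividing cells. The RNA-binding protein LIN28B keeps let-7 microRNAs from maturing, and AGO2 holds microRNAs as they silence their target mRNAs. In bulk RNA, fewer cells in G2 and M phase and less mRNA per such cell cannot be told apart.

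Promoters of G2 and M phase genes are known for 2 short elements, the CHR (TTTGAA or TTCGAA), bound by MuvB complexes, and the CCAAT box, bound by NF-Y. RefSeq promoter windows of assembly GRCh38.p14, reaching from 250 bases before to 50 bases after the annotated start, were matched by symbol for 8 of the 10 genes, all but UBE2C and PBK. On either strand, CCAAT stood in the windows of 8 of these 8 genes, and in 34.6% of the 35116 windows of the same length. A CHR stood in 5 of 8, those of TOP2A, NUSAP1, DLGAP5, CCNB2 and CDC20, and in 16.4% of all windows. These letters were found at no place in the windows of KIF20A, AURKB and PTTG1. The 5 sequences below are shown because 3 of them belong to the genes that differed past the threshold between the control lines (TOP2A, NUSAP1, DLGAP5) and the other two to the genes with a window that differed least there (CCNB2, CDC20). Each is the gene strand, 5′ to 3′, with CHR and CCAAT matches on either strand in capitals; TTCGAA reads the same on both strands and counts once, and no CHR match overlaps a CCAAT match.
TOP2A (chr17:40417847-40418146, minus strand): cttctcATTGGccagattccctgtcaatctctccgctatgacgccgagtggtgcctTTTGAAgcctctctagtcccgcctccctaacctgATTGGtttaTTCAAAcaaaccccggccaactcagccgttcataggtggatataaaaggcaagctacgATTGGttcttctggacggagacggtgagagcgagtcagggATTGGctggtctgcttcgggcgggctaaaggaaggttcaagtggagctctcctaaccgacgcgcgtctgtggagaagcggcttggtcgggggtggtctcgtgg
NUSAP1 (chr15:41332631-41332930, plus strand): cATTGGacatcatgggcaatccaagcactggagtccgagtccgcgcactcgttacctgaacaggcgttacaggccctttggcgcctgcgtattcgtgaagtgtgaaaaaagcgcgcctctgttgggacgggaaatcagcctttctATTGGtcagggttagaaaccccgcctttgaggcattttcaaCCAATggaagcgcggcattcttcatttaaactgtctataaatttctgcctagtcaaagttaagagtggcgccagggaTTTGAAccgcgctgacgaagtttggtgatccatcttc
DLGAP5 (chr14:55191536-55191835, minus strand): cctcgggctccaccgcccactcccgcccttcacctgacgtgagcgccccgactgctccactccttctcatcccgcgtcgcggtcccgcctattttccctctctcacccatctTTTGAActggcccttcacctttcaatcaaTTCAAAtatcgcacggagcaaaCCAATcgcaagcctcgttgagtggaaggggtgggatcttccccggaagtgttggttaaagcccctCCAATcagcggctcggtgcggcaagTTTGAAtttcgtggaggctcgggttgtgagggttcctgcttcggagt
CCNB2 (chr15:59104896-59105195, plus strand): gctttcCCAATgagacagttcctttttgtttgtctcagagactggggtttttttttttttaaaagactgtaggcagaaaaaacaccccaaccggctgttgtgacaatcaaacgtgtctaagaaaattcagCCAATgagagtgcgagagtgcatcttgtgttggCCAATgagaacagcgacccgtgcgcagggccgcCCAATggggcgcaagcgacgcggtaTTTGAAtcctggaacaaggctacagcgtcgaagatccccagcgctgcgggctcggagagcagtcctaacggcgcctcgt
CDC20 (chr1:43358731-43359030, plus strand): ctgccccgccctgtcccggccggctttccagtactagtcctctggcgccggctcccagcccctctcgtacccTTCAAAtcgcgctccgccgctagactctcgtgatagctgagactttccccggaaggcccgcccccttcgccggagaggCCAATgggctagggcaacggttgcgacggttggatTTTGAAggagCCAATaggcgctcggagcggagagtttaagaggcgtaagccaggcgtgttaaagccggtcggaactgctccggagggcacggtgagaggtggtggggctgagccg

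The layout of the matches differed between genes. With the start base counted as 1, the CCNB2 window held 4 CCAAT matches on the gene strand, whose first bases stood at -244, -120, -87 and -54, so that the last 3 were spaced by 33 bases, and a CHR followed at -29. The CHR matches nearest to the start lay just past it in DLGAP5, at 4, and in NUSAP1, at 14. In CDC20 a CHR at -65 stood between CCAAT boxes at -100 and -55. TOP2A held 4 CCAAT matches, all on the opposite strand, and its CHR matches lay at -194 and -151. The genes that differed between the control lines and those that differed least both carried the 2 elements, so their presence does not separate these 5 genes.

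**Figure D1:**
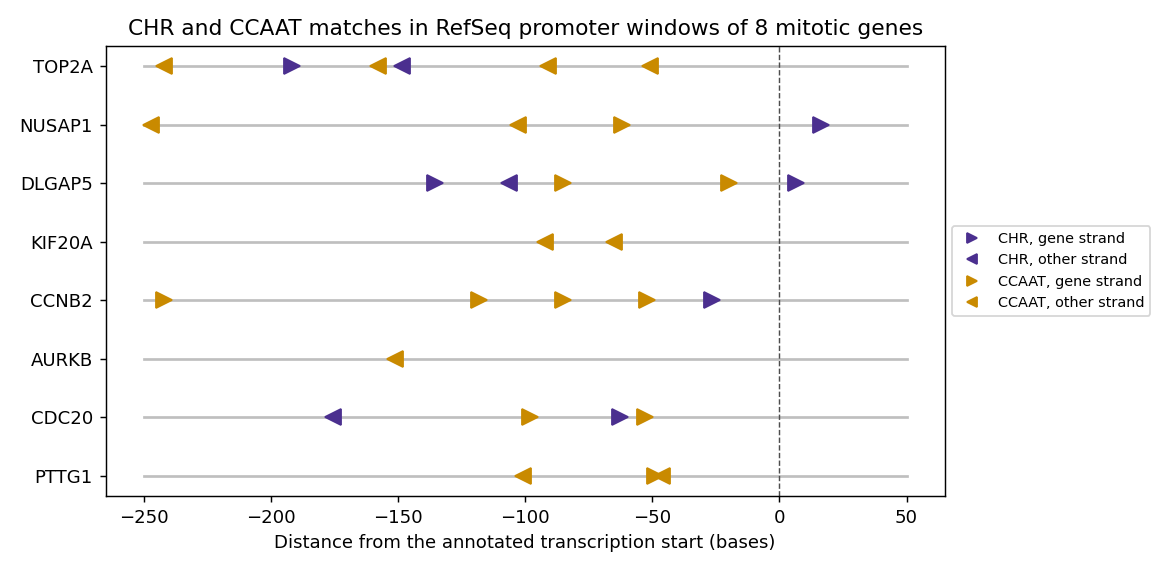
Positions of CHR (purple) and CCAAT (orange) matches in the RefSeq promoter windows of 8 mitotic genes, with the distance from the annotated transcription start in bases on the x axis and the direction of each triangle giving the strand. CCAAT matches appear in 8 of 8 windows drawn and CHR matches in 5; for genes with several windows the first is drawn.

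All 10 probes were bright. Their deposited intensities ranged from 645 to 12073, while the array medians lay between 61.7 and 67.04, and each probe exceeded at least 91.1% of all probes on each array. All 10 were thus among the 28035 probes kept for testing, and the background level left in the deposited values weighs little on their fold changes. Changes are given on the quantile-normalized log2(intensity + 32) scale, as clones minus control, with a moderated SE from limma and p-values adjusted over the 28035 probes by the Benjamini-Hochberg method; the threshold is 0.05. The residual spread of a probe comes from the 2 pairs of clones alone, with 2 residual degrees of freedom. Limma then moves it toward a spread estimated over all kept probes, which counts for 2.54 prior degrees of freedom. Each control is assumed to vary like a clone. The clones of a pair are different stable lines, so the residual spread behind the p-values holds differences between clones as well as technical spread. Each line was measured on a single array, so clone, culture and technical differences cannot be separated. Quantile normalization raised the Lin-28B control relative to its clones for all 10 probes. Where the quantile scale and the deposited intensities give opposite directions for clones against their own control, this is therefore stated at the gene.

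Among the genes of chromosome structure and the spindle, TOP2A (probe ILMN_1686097) showed the widest spread over the arrays. It encodes the topoisomerase that untangles sister chromosomes before they part. TOP2A measured 2304 and 2287 in Lin-28B clones 1 and 2, against 4489 in their control, and 2474 and 1761 in Ago2 clones 1 and 2, against 1732 in theirs. The Lin-28B control stood far above the other 5 arrays, and Ago2 clone 2 lay beside its control. The log2 change was -1.19 ± 0.23 (SE) in the Lin-28B clones, 2.28-fold lower than the control, with an adjusted p of 0.0807, and 0.30 ± 0.23 (SE) in the Ago2 clones, with an adjusted p of 0.634. Neither passed the threshold. In deposited intensities the mean of the Lin-28B clones was 0.51 of their control, less than 2-fold lower.

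NUSAP1 (probe ILMN_1726720) encodes a protein that binds and bundles spindle microtubules near the chromosomes. Its probe measured 3340 and 3371 in the Lin-28B clones, against 4644 in their control, and 3934 and 3546 in the Ago2 clones, against 2828 in theirs. The Lin-28B control was again the highest of the arrays and the Ago2 control the lowest, with all 4 clones between them. The log2 change was -0.71 ± 0.13 (SE, adjusted p = 0.0752) in the Lin-28B clones and 0.43 ± 0.13 (SE, adjusted p = 0.243) in the Ago2 clones.

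DLGAP5, also called HURP (probe ILMN_1749829), encodes a protein that stabilizes the microtubules attached to kinetochores. It measured 1085 and 1072 in the Lin-28B clones, against 1587 in their control, and 1006 and 1110 in the Ago2 clones, against 813 in theirs. The 4 clones lay close together, with one control above and the other below them. DLGAP5 came nearest to the threshold of the 10 probes in both comparisons, with a log2 change of -0.76 ± 0.10 (SE, adjusted p = 0.0544) in the Lin-28B clones and 0.37 ± 0.10 (SE, adjusted p = 0.228) in the Ago2 clones. Without the filter on dim probes the Lin-28B change had an adjusted p of 0.0490.

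KIF20A (probe ILMN_1695658) encodes a kinesin motor that brings the chromosomal passenger complex to the spindle midzone for cell division. It measured 2152 and 2272 in the Lin-28B clones, against 2670 in their control, and 2512 and 1703 in the Ago2 clones, against 1256 in theirs. Here the Ago2 control lay well below the other arrays. The log2 change in the Ago2 clones, 0.74 ± 0.26 (SE, adjusted p = 0.304), was the largest of the 10 probes in that comparison, at 1.02 in clone 1 and 0.45 in clone 2. In the Lin-28B clones it was -0.50 ± 0.26 (SE, adjusted p = 0.394).

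**Figure D2:**
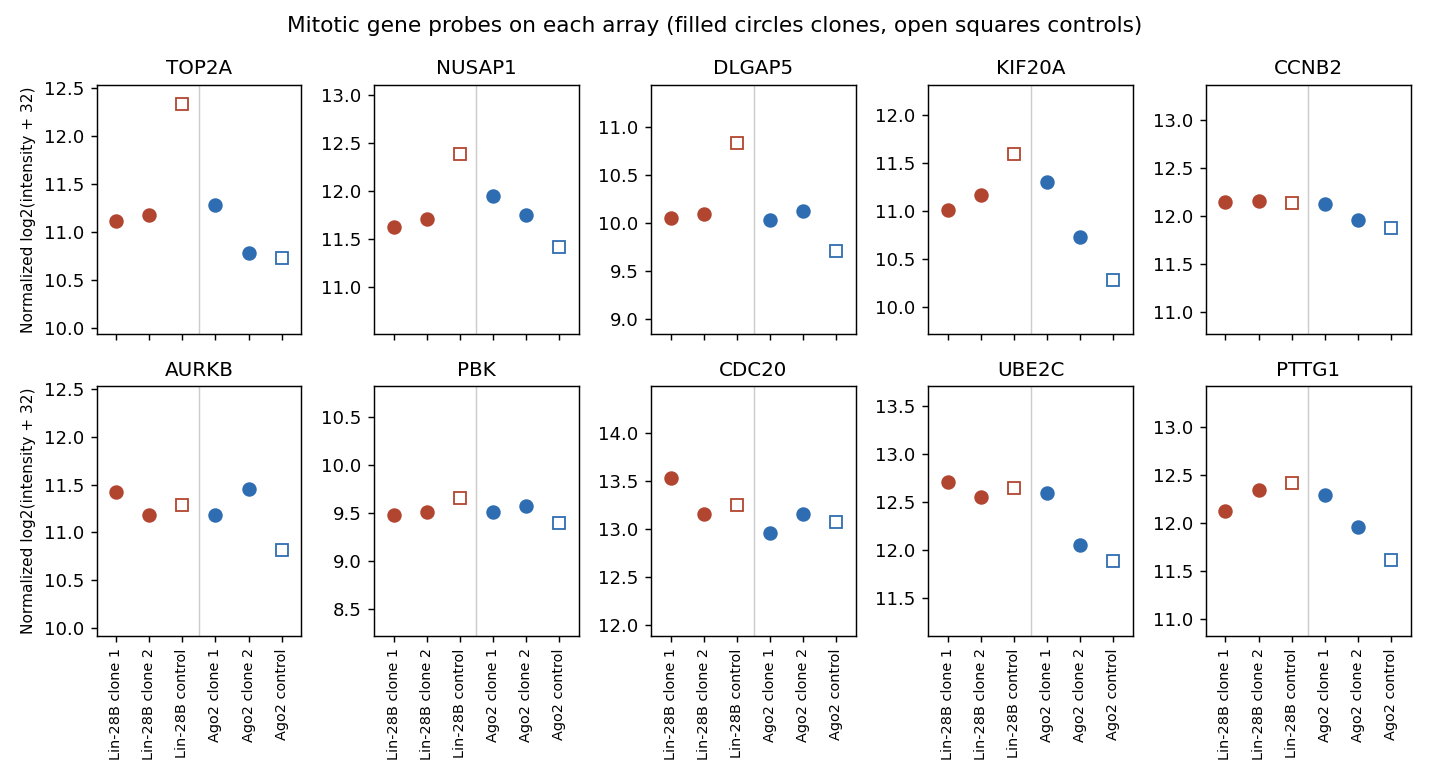
Normalized log2(intensity + 32) of the 10 mitotic probes (y axis, each panel spanning 2.6 log2 units) on the 6 arrays (x axis), with clones as filled circles and controls as open squares, red for Lin-28B and blue for Ago2; each point is 1 array, so there are no error bars. In the panels of TOP2A, NUSAP1, DLGAP5, KIF20A, PBK and PTTG1 the Lin-28B control is the highest point and the Ago2 control the lowest, an order that PBK and PTTG1 did not show in deposited intensities.

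The next 3 genes encode a cyclin and 2 kinases. CCNB2 (probe ILMN_1801939) encodes cyclin B2, a partner of CDK1. It measured 4743 and 4562 in the Lin-28B clones, against 3914 in their control, and 4434 and 4022 in the Ago2 clones, against 3890 in theirs. In deposited intensities the 2 Lin-28B clones were the highest arrays, but after quantile normalization they lay level with their control, and their log2 change was 0.013 ± 0.12 (SE) with an adjusted p of 0.968. This change was 0.27 with the arrays only shifted to a common median and -0.011 with cyclic loess. The change in the Ago2 clones was 0.16 ± 0.12 (SE, adjusted p = 0.622).

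AURKB (probe ILMN_1684217) encodes the kinase of the chromosomal passenger complex, which corrects faulty attachments of chromosomes to the spindle. It measured 2851 and 2294 in the Lin-28B clones, against 2164 in their control, and 2286 and 2829 in the Ago2 clones, against 1848 in theirs. The Ago2 control was the lowest array, and the 5 others overlapped. In deposited intensities both Lin-28B clones lay above their control, while on the quantile scale clone 2 was lower by a log2 difference of -0.11. The log2 change was 0.0098 ± 0.18 (SE, adjusted p = 0.984) in the Lin-28B clones, where it was -0.0081 with cyclic loess and 0.26 with the arrays only shifted to a common median, and 0.50 ± 0.18 (SE, adjusted p = 0.307) in the Ago2 clones.

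PBK, also called TOPK (probe ILMN_1673673), encodes a kinase active in mitotic cells. Of the 10 probes it varied least on the log2 scale, by 0.26 between the highest and the lowest array. It measured 693 and 701 in the Lin-28B clones, against 724 in their control, and 705 and 738 in the Ago2 clones, against 645 in theirs. Its log2 change was -0.17 ± 0.10 (SE, adjusted p = 0.461) in the Lin-28B clones and 0.15 ± 0.10 (SE, adjusted p = 0.604) in the Ago2 clones.

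The last 3 genes act at the anaphase-promoting complex. CDC20 (probe ILMN_1663390) encodes the activator that the spindle checkpoint holds back until all chromosomes are attached. It measured 12073 and 8940 in the Lin-28B clones, against 9144 in their control, and 8096 and 9125 in the Ago2 clones, against 8724 in theirs. Lin-28B clone 1 was the highest array and the other 5 lay close together, with clones on either side of each control. The log2 change was 0.096 ± 0.20 (SE, adjusted p = 0.846) in the Lin-28B clones, where it was -0.094 with cyclic loess, and -0.012 ± 0.20 (SE, adjusted p = 0.987) in the Ago2 clones, where it was 0.046 with the arrays only shifted to a common median.

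UBE2C (probe ILMN_2301083) encodes the ubiquitin-conjugating enzyme that works with this complex. It measured 7080 and 5891 in the Lin-28B clones, against 5665 in their control, and 6376 and 4276 in the Ago2 clones, against 3917 in theirs. The Ago2 control and Ago2 clone 2 were low, and the other 4 arrays were higher. In deposited intensities both Lin-28B clones lay above their control, by 1.14-fold on average, while on the quantile scale clone 1 was higher by 0.056 and clone 2 lower by a log2 difference of -0.097. The log2 change was -0.021 ± 0.25 (SE, adjusted p = 0.975) in the Lin-28B clones, where it was 0.21 with the arrays only shifted to a common median, and 0.43 ± 0.25 (SE, adjusted p = 0.526) in the Ago2 clones.

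PTTG1 (probe ILMN_1753196) encodes securin, which keeps separase inactive until anaphase and is then destroyed. It measured 4707 and 5198 in the Lin-28B clones, against 4743 in their control, and 5048 and 4011 in the Ago2 clones, against 3197 in theirs. Both Ago2 clones lay above their control, while the Lin-28B clones lay on either side of theirs in deposited intensities. Their deposited mean was 1.04-fold the control, opposite in direction to the quantile scale. The log2 change was -0.18 ± 0.19 (SE, adjusted p = 0.686) in the Lin-28B clones, where it was 0.082 with the arrays only shifted to a common median, and 0.51 ± 0.19 (SE, adjusted p = 0.322) in the Ago2 clones.

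In the first comparison, of the Lin-28B clones with their control, 6 of 10 probes were lower in both clones, TOP2A, NUSAP1, DLGAP5, KIF20A, PTTG1 and PBK, against 37.7% of kept probes. In deposited intensities there were 5 of 10, without PTTG1, against 38.9% of kept probes. With the arrays only shifted to a common median there were the same 5, against 35.2%. CCNB2 was higher in both clones, and AURKB, CDC20 and UBE2C had a clone on either side of the control. TOP2A was at least 2-fold lower in both Lin-28B clones (-1.22 and -1.16 on the log2 scale), and was the 1 member of 10 at this size, against 1.34% of the kept probes. After TOP2A came DLGAP5 at -0.78 and -0.74, NUSAP1 at -0.76 and -0.67, KIF20A at -0.58 and -0.43, PTTG1 at -0.28 and -0.071 and PBK at -0.19 and -0.15 in clones 1 and 2. TOP2A, DLGAP5, NUSAP1, KIF20A and PBK were also lower with cyclic loess and with the arrays only shifted to a common median, where the TOP2A change was -0.94 and no longer 2-fold in both clones. In deposited intensities TOP2A measured 2304 and 2287, against 4489 in the control, also less than 2-fold lower.

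No member passed the adjusted threshold in limma in this comparison, while 463 kept probes (1.65%) did in the fit reported here. With robust moderation no member passed and 1 kept probe did. With an intensity trend no member passed and 721 kept probes did. At an unadjusted p under 0.05 there were 3 of 10, TOP2A, NUSAP1 and DLGAP5, all lower, against 9.61% of kept probes that were lower at this level. Over the 10 probes the median change was -0.17, from -1.19 to 0.096, beside a median of 0.016 over all kept probes. The members' median was 0.026 with the arrays only shifted to a common median and 0.15 against both controls pooled, so the direction of the whole set depended on the scaling and on the control. Leaving out Ago2 clone 1 or clone 2, whose spread enters the error, changed the p-values but left the members' median at -0.17. Without Lin-28B clone 1 that median was -0.13, and without Lin-28B clone 2 it was -0.24.

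**Figure D3:**
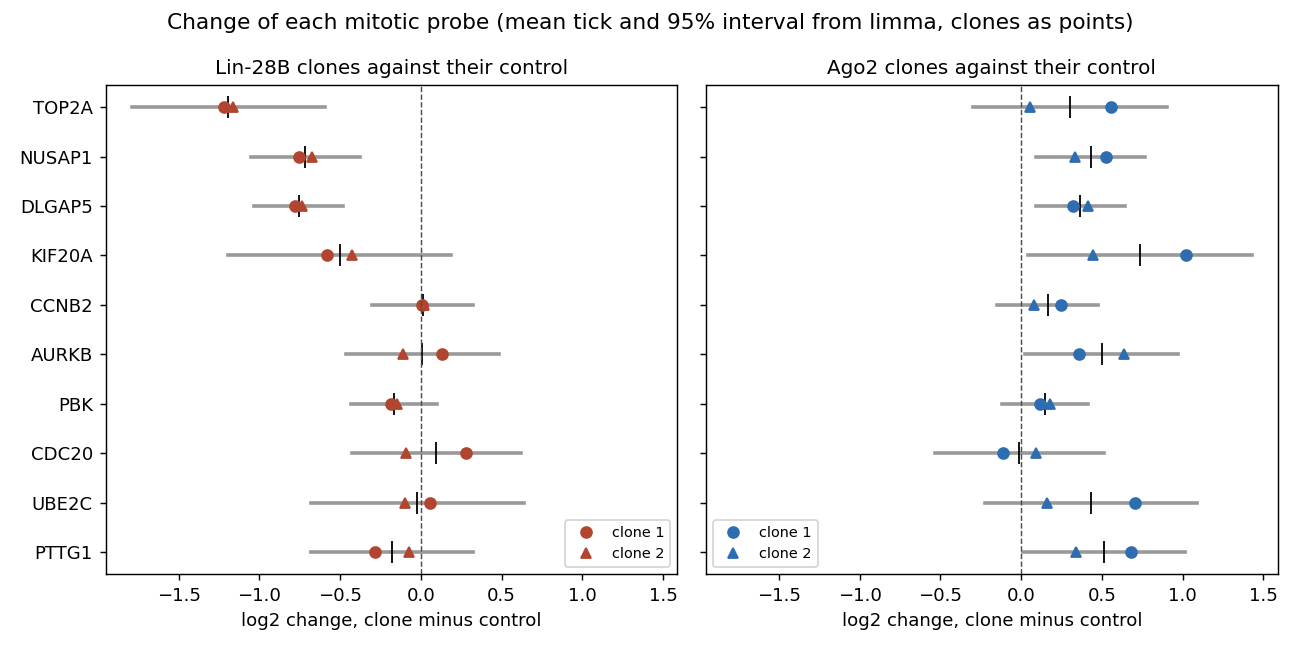
Log2 change of each mitotic probe in the Lin-28B clones (left, red) and the Ago2 clones (right, blue) against their own control, with clone 1 as circles, clone 2 as triangles, the mean as a tick and the 95% interval from limma as a grey bar. TOP2A, NUSAP1, DLGAP5 and KIF20A lie left of 0 for Lin-28B, from -1.19 to -0.50, and 9 of 10 probes lie right of 0 for Ago2.

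In the second comparison, of the Ago2 clones with their control, 9 of 10 probes were higher in both clones, all but CDC20, whose clones lay on either side of the control. Both Ago2 clones were higher for 34.9% of kept probes. The median change was 0.40, from -0.012 to 0.74, beside -0.0081 over all kept probes. KIF20A, PTTG1 and AURKB had the largest changes, 1.67-fold, 1.43-fold and 1.41-fold.

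In limma no member passed the adjusted threshold for Ago2, nor did any of the kept probes (0%). With robust moderation there were also 0 of 10, and 0 kept probes passed. With an intensity trend there were 0 of 10, while 161 kept probes passed. At an unadjusted p under 0.05 there were 5 of 10, PTTG1, NUSAP1, KIF20A, DLGAP5 and AURKB, all higher, against 6.92% of kept probes that were higher at this level. No member was at least 2-fold higher in both Ago2 clones, against 0.638% of kept probes. Without Ago2 clone 1 the members' median was 0.26, and without Ago2 clone 2 it was 0.44. Against both controls pooled it was 0.023, and TOP2A (-0.50), DLGAP5 (-0.20) and NUSAP1 (-0.054) turned direction.

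The Lin-28B clones and the Ago2 clones were also compared directly. Differences, Lin-28B clones minus Ago2 clones, ran from -0.18 for NUSAP1 to 0.31 for UBE2C, with a median of 0.092 beside 0.0048 over all kept probes. DLGAP5 differed by 0.0019 ± 0.085 (SE) and TOP2A by 0.12 ± 0.18 (SE). CDC20 followed UBE2C with 0.29 ± 0.16 (SE), where Lin-28B clone 1 alone was high. AURKB differed by -0.016 ± 0.15 (SE), while in deposited intensities its mean was 1.006-fold higher in the Lin-28B clones, the opposite direction.

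No member passed in limma, with adjusted p-values from 0.846 to 0.998, against 0% of kept probes, and 0 of 10 had an unadjusted p under 0.05, against 6.96% of kept probes. Robust moderation and an intensity trend also called 0 of 10, beside 0 and 2 of the kept probes. The intervals bound what these arrays could show: the 95% interval was -0.22 to 0.23 for DLGAP5 and -0.27 to 0.17 for PBK, but -0.37 to 0.61 for TOP2A and -0.23 to 0.85 for UBE2C. The 2 pairs of clones did not overlap for CCNB2, higher in the Lin-28B clones (18.7% of kept probes), and for NUSAP1, lower in the Lin-28B clones (16.9%). An exact permutation test of 2 clones against 2 cannot go below a two-sided p of 0.333, so none was run.

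Of the comparisons between pairs of groups, that of the control lines had the largest median difference over these genes. All 10 probes were higher in the Lin-28B control than in the Ago2 control, a direction seen for 46.5% of kept probes. TOP2A was 3.05-fold higher, KIF20A 2.49-fold, DLGAP5 2.18-fold, NUSAP1 1.96-fold, PTTG1 1.74-fold and UBE2C 1.69-fold. AURKB was 1.39-fold higher, PBK and CCNB2 1.20-fold and CDC20 1.13-fold. These folds are on the quantile scale, and in deposited intensities all 10 were higher too, but by less. There TOP2A was 2.59-fold higher, KIF20A 2.13-fold, DLGAP5 1.95-fold, NUSAP1 1.64-fold, PTTG1 1.48-fold and UBE2C 1.45-fold. AURKB was 1.17-fold higher there, PBK 1.12-fold, CDC20 1.05-fold and CCNB2 1.01-fold. The median difference of the 10 was 0.78 on the log2 scale, beside -0.025 over all kept probes.

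In limma 3 of 10 passed the adjusted threshold, TOP2A with a log2 difference of 1.61 ± 0.26 (SE, adjusted p = 0.0463), NUSAP1 with 0.97 ± 0.15 (SE, adjusted p = 0.0418) and DLGAP5 with 1.13 ± 0.12 (SE, adjusted p = 0.0319), against 5.97% of kept probes. KIF20A, with the second largest difference of 1.31 ± 0.30 (SE), had an adjusted p of 0.0821. At least 2-fold higher were TOP2A, KIF20A and DLGAP5, against 4.51% of kept probes. In deposited intensities DLGAP5 was under 2-fold, at 1.95-fold. Each control is 1 array, so the test has no replicate of either control, and without Lin-28B clone 1 or clone 2 the 3 adjusted p-values lay between 0.109 and 0.131. TOP2A and NUSAP1 also missed the threshold with an offset of 100 (0.0689 and 0.0508) or with the arrays only shifted to a common median (both 0.0601), TOP2A without the filter on dim probes (0.0563) or with robust moderation (0.0510), and NUSAP1 and DLGAP5 with an intensity trend (0.0561 and 0.0517). KIF20A passed with an intensity trend (0.0483), a fit in which 2239 kept probes passed, against 1674 in the fit reported here. Leaving out an Ago2 clone changed the error of every probe but none of these differences, with the members' median still 0.78.

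**Figure D4:**
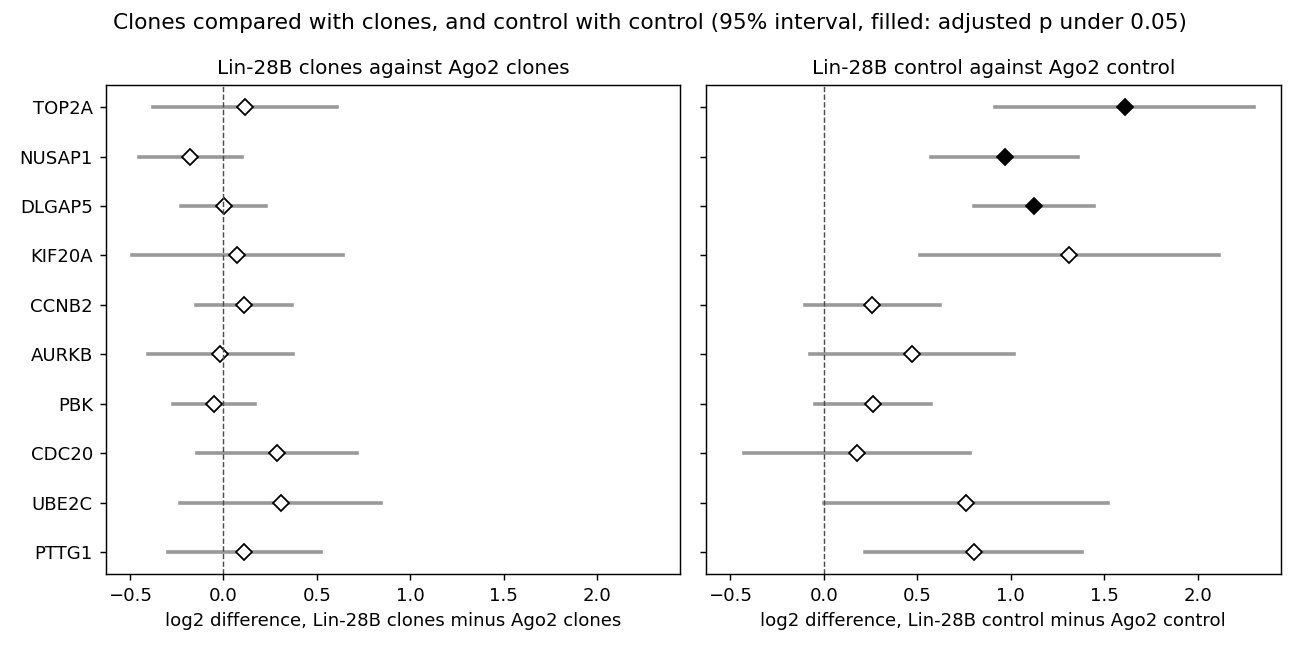
Log2 difference of each mitotic probe between the Lin-28B clones and the Ago2 clones (left) and between the Lin-28B control and the Ago2 control (right), with the 95% interval from limma as a bar; filled diamonds have an adjusted p under 0.05. The clone differences lie between -0.18 and 0.31, and the control differences between 0.18 and 1.61, with TOP2A, NUSAP1 and DLGAP5 filled.

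The comparisons above share arrays: the Lin-28B control enters both the Lin-28B change and the control difference, and the Ago2 control both the Ago2 change and the control difference. The order of the arrays was therefore also described without contrasts. For 17.3% of kept probes both Lin-28B clones lay below and both Ago2 clones above their own control, as they did for 6 of the 10 members. For these 6, TOP2A, PTTG1, NUSAP1, KIF20A, DLGAP5 and PBK, the Lin-28B control was the highest and the Ago2 control the lowest, with all 4 clones between them, an order seen for 9.16% of kept probes. Both counts depended on the scaling. In deposited intensities Lin-28B clone 2 was the highest array for PTTG1 and Ago2 clone 2 for PBK, so 4 of 10 had both controls at the ends, against 7.47% of kept probes, and 5 of 10, all but PTTG1 of the 6, had the opposite directions, against 14.8%. With the arrays only shifted to a common median the counts were again 4 and 5, against 9.21% and 18.4%. Both were 6 with cyclic loess, against 9.43% and 18.4%. The Ago2 control was the lowest array for 9 of 10, all but CDC20, against 21.0% of kept probes. The list was chosen with earlier results of these arrays known, so these counts describe it and test nothing.

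The place of the clones between the 2 controls varied by gene. With the Ago2 control set to 0 and the Lin-28B control to 1 for each probe, the Lin-28B clones stood at 0.26 and the Ago2 clones at 0.19 for TOP2A, and at 0.33 and 0.33 for DLGAP5, nearer to the Ago2 control. For KIF20A they stood at 0.62 and 0.56, nearer to the middle. For NUSAP1 the Lin-28B clones stood at 0.26 and the Ago2 clones at 0.44. PTTG1 was at 0.78 in the Lin-28B clones and 0.64 in the Ago2 clones, nearer to the Lin-28B control, and PBK at 0.36 and 0.55. The other 4 genes had clones at or beyond the Lin-28B control: the Lin-28B clones stood at 1.05 for CCNB2, 0.97 for UBE2C, 1.02 for AURKB and 1.54 for CDC20, and the Ago2 clones at 0.63, 0.57, 1.06 and -0.066 for the same genes. Each place is divided by the control difference. That was only 0.18 ± 0.23 (SE) for CDC20, 0.26 ± 0.14 (SE) for CCNB2 and 0.26 ± 0.12 (SE) for PBK, so places for these genes are imprecise. In deposited intensities the CCNB2 controls were nearly level, at 3914 and 3890, so its place depends on the scaling. Where all 4 clones lie between the controls, the direction in a clone must turn with the control it is set against, so this restates the order above. Against the Ago2 control, TOP2A was higher by 0.42 in the Lin-28B clones. Against the Lin-28B control it was lower by a difference of -1.31 in the Ago2 clones. NUSAP1, KIF20A and DLGAP5 turned in the same way, with 0.25, 0.81 and 0.37 in the Lin-28B clones against the Ago2 control and -0.54, -0.58 and -0.76 in the Ago2 clones against the Lin-28B control. AURKB did not turn: it was higher by 0.48 in the Lin-28B clones against the Ago2 control and by 0.026 in the Ago2 clones against the Lin-28B control. Its Lin-28B change against its own control was only 0.0098, and -0.0081 with cyclic loess. CDC20 did not turn either, with 0.27 in the Lin-28B clones against the Ago2 control and -0.19 in the Ago2 clones against the Lin-28B control. The CDC20 changes against the own controls were only 0.096 and -0.012, and -0.094 and 0.0082 with cyclic loess.

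**Figure D5:**
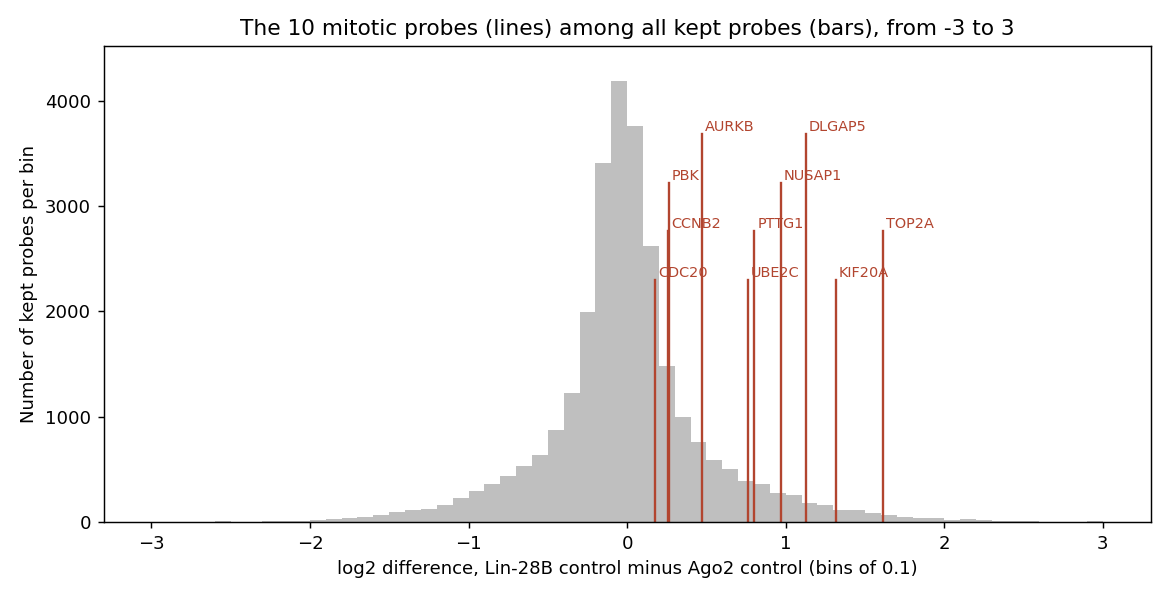
Number of kept probes (bars, bins of 0.1) by log2 difference between the Lin-28B control and the Ago2 control, drawn from -3 to 3, with each mitotic probe as a red line whose height has no meaning. All 10 lines lie to the right of 0, from CDC20 at 0.18 to TOP2A at 1.61.

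The difference between both effects, the Lin-28B change minus the Ago2 change, passed in limma for 1 of 10 probes, DLGAP5, with -1.12 ± 0.15 (SE, adjusted p = 0.0458), against 3.81% of kept probes. NUSAP1 followed with -1.14 ± 0.18 (SE, adjusted p = 0.0516), TOP2A with -1.50 ± 0.32 (SE, adjusted p = 0.0837) and KIF20A with -1.24 ± 0.37 (SE, adjusted p = 0.150). This value is the direct difference between the clones minus the difference between the controls. For DLGAP5 these parts were 0.0019 and 1.13, so the gap between 2 single control arrays made up nearly all of it. The DLGAP5 call was lost with an offset of 100 (0.0532), with the arrays only shifted to a common median (0.0535), with an intensity trend (0.108) and without Lin-28B clone 1 (0.178) or clone 2 (0.153). Without Ago2 clone 1 the difference of effects was -1.24 for TOP2A, -1.05 for NUSAP1 and -0.95 for KIF20A. Without Ago2 clone 2 it was -1.75, -1.24 and -1.53 for the same genes.

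Clones of the same transfection differed in these genes by amounts that set the error. Between Ago2 clones 1 and 2 the median gap over the 10 probes was 0.24 on the log2 scale, beside 0.12 over all kept probes. Clone 1 was above clone 2 for 6 of 10, by 0.58 for KIF20A, 0.54 for UBE2C, 0.50 for TOP2A, 0.34 for PTTG1, 0.19 for NUSAP1 and 0.17 for CCNB2. It was below clone 2 for AURKB (-0.28), CDC20 (-0.20), DLGAP5 (-0.094) and PBK (-0.063). Between Lin-28B clones 1 and 2 the median gap was 0.12, beside 0.11 over all kept probes, and the largest was 0.37 for CDC20. The wide intervals of TOP2A, KIF20A and UBE2C in each comparison go with the gap between the Ago2 clones, because 1 error per probe serves all groups.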

How the data were processed

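Biotin-labelled cRNA from total RNA of 6 stable H1299 lines was hybridized to Illumina human HT-12 BeadChips, per the labels' protocols. The deposited file holds linear intensities of 48803 probes, with scanner software, background handling and normalization not given in the sources used here. Groups and clone numbers came from the sample titles. Values under 1 would have been raised to 1, then log2(intensity + 32) was quantile normalized. A probe was kept if it exceeded the array median on 2 or more arrays (28035, 57.4%). One model with 4 groups was fitted to all of them in limma 3.58.1 under R 4.3.3 (2 residual and 2.54 prior degrees of freedom), with Benjamini-Hochberg adjustment and 5 contrasts. It was run on simulated data whose spread was drawn from the fitted prior and was the same in controls and clones. That run cannot test whether a control varies like a clone. A size rule without a test asked that both clones differ from the control 2-fold or more, one way. With 2 clones against 1 control an exact permutation test cannot go below 0.333. Precision is limited by the number of arrays.

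The members and lists were chosen with earlier results of these data known. The naming rule covered the 10 members, further mitotic genes, the transfected genes and probes of similar pattern; all but the members needed gene symbols for other probes and were not analysed here, like the cell type markers. Promoter windows are RefSeq's for GRCh38.p14. Alternatives changed the offset, normalization, filter, moderation, clones, controls and replicate number.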

Additional observations from a re-analysis of the deposited data

Results flagged for a closer look

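A set of 6 mitotic probes was singled out because both Lin-28B clones lay below their control while both Ago2 clones lay above theirs, which held for 17.3% of kept probes. The count depended on the scaling. It was 5 in deposited intensities, against 14.8% of kept probes. With the arrays only shifted to a common median it was also 5, against 18.4%. PTTG1 fell out, since it measured 4707 and 5198 in the Lin-28B clones, against 4743 in their control. Its Lin-28B change under the median shift was 0.082. For DLGAP5 the difference between both effects passed the test itself, at -1.12 on the log2 scale (limma, adjusted p = 0.0458). For the other 5 that difference was tested in limma and did not pass: it was -1.50 for TOP2A (adjusted p = 0.0837), -1.14 for NUSAP1 (0.0516), -1.24 for KIF20A (0.150), -0.69 for PTTG1 (0.237) and -0.31 for PBK (0.301). Each effect is taken against 1 control array, so a difference between the transfections and one between the 2 control lines cannot be told apart in these values. Compared directly, without the controls, the clones differed by 0.0019 for DLGAP5, 0.12 for TOP2A, -0.18 for NUSAP1, 0.074 for KIF20A, 0.11 for PTTG1 and -0.049 for PBK, none past the threshold in limma.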

How the results depend on the processing

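Of 670 values for single members under the alternatives tried, 596 kept their direction and side of the threshold, 31 turned direction, 23 lost a call and 20 gained one; the cause was not tested. Calls over all probes were 463 for Lin-28B, 0 for Ago2, 0 between the clones, 1067 for the difference of effects and 1674 between the controls. For Lin-28B they were 0 with an offset of 100, 813 with none, 1 with cyclic loess, 0 with the filter on all 6 arrays, 721 with an intensity trend, 1 with robust moderation, 0 with pooled controls and 0 to 2357 with a clone left out. An intensity trend gave 161 for Ago2 and 2 between the clones, and leaving out a clone gave 0 to 51 for Ago2. The difference of effects gave 0 with an offset of 100 and 0 to 2887 without a clone, and the controls 1003 and 0 to 4000. The share of Lin-28B calls that were higher was 49.9% here and 70.4% with the arrays only shifted to a common median.

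The members' median for Lin-28B, -0.17, was -0.20 with cyclic loess, 0.026 with a median shift, 0.15 with pooled controls and -0.24 to -0.13 without a clone. For Ago2 it was 0.023 with pooled controls and 0.26 to 0.44 without a clone, between the clones 0.0040 to 0.19, for the difference of effects -0.37 with a median shift and -0.79 to -0.57 without a clone, and between the controls 0.58 with a median shift. The count of members at least 2-fold apart, 1 for Lin-28B, was 0 with a median shift or pooled controls. For Ago2 it ran from 0 to 1, the 1 being without Ago2 clone 2.

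Directions that turned were all of uncalled values. With cyclic loess these were CCNB2 (-0.011), CDC20 (-0.094) and AURKB (-0.0081) for Lin-28B, CDC20 for Ago2 (0.0082) and for the difference of effects (-0.10), and DLGAP5 between the clones (-0.0015). With a median shift they were UBE2C (0.21) and PTTG1 (0.082) for Lin-28B, CDC20 for Ago2 (0.046) and CCNB2 for the difference of effects (0.085). With pooled controls they were UBE2C (0.36), PTTG1 (0.22) and KIF20A (0.15) for Lin-28B, and TOP2A (-0.50), NUSAP1 (-0.054) and DLGAP5 (-0.20) for Ago2. Leaving out a clone gave ranges across 0 for CDC20 (-0.090 to 0.28), UBE2C (-0.097 to 0.056) and AURKB (-0.11 to 0.13) for Lin-28B, for CDC20 for Ago2 (-0.11 to 0.090) and for the difference of effects (-0.078 to 0.29), and between the clones for TOP2A (-0.13 to 0.37), PTTG1 (-0.059 to 0.28), KIF20A (-0.21 to 0.36), DLGAP5 (-0.045 to 0.049) and AURKB (-0.16 to 0.12).

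Clones share only a number across transfections, and deviations of clones with the same number correlated at -0.20 across probes. With the clone number as a replicate block, calls were 0 for Lin-28B, the difference of effects and the controls, so DLGAP5, TOP2A and NUSAP1 lost theirs there, and UBE2C for Lin-28B was 0.15 and CDC20 for Ago2 0.030. The crossed pairing, added after seeing the data, gave 558, 0, 0, 1743 and 2500 calls in the order above. A leave-out fit has 1 residual degree of freedom, from the other pair of clones.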
